A study of Mus musculus with 12 samples.

Results

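H3K27me3, the histone mark of Polycomb silencing, was compared between Ints11 knockout (KO) and wild-type (WT) progenitor cells through the positions and widths of its peaks. The comparison rests on 4 of the 12 samples of the series, chosen as the H3K27me3 peak lists: 2 from WT mice (WT_407 and WT_409) and 2 from KO mice (KO_399 and KO_401). All were C57BL/6 mice. The KO mice were Mx1Cre+ with Ints11 alleles labelled flox/fox, and the controls were WT littermates. Whether the littermates carried Mx1Cre is not given in the labels, nor is age. Mx1Cre is driven by an interferon-responsive promoter and so is not restricted to blood cells. cKit+ bone marrow cells, Lin-cKit+ in the series design, were sorted 4 days after poly(I:C), an interferon inducer, and H3K27me3 was precipitated with the Millipore 07-449 antibody. The 2 numbers per genotype were read as single mice, as the design gives 2 mice per genotype. The 4 H3K4me3 lists of the same numbers, a mark of active and poised promoters, were used for overlap only.

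Polycomb repressive complex 2 places H3K27me3 on nucleosomes, mostly from CpG-rich nucleation sites near promoters, and the mark then spreads outward into domains that keep developmental genes silent in blood progenitors. INTS11 is the endonuclease of Integrator, a complex that cleaves nascent small nuclear RNAs and other RNA polymerase II transcripts. A peak list shows where the mark passed the caller's thresholds in a library and not how much of it each nucleosome carried. In bulk cells, fewer cells with the mark and less mark per cell cannot be told apart.

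To show what kinds of promoter stood at both ends of the comparison, 6 promoters are printed from RefSeq (assembly GRCm38.p6), each from 250 bases before to 50 bases after the start site, read 5′ to 3′ on the gene's strand, with every CG in capitals. The first 3 had their start site under a peak in both WT and no KO peak within 5 kb, and were taken by the mean width of the WT peak. Such start sites numbered 119 of the 210 that were covered in both WT and neither KO. Apela encodes a peptide hormone of the apelin receptor (chr8:65037287-65037586, minus strand). Its peak was 3576 and 3796 bp wide in WT_407 and WT_409. Lrfn4 encodes a synaptic adhesion protein (chr19:4615618-4615917, minus strand), with peaks of 3080 and 2937 bp. Gpx7 encodes an endoplasmic reticulum peroxidase (chr4:108406664-108406963, minus strand), with peaks of 4344 and 1379 bp.
Apela: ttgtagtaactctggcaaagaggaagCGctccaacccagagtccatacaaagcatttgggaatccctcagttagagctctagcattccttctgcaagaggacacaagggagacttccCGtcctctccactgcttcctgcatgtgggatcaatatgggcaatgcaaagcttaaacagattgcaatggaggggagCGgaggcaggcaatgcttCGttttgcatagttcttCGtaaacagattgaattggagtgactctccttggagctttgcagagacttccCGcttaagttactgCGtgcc
Lrfn4: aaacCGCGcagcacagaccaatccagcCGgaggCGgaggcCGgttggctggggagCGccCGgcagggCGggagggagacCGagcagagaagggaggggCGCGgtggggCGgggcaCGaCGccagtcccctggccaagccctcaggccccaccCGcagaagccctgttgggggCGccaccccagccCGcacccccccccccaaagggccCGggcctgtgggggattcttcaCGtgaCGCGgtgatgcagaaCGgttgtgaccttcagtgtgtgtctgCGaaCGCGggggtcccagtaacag
Gpx7: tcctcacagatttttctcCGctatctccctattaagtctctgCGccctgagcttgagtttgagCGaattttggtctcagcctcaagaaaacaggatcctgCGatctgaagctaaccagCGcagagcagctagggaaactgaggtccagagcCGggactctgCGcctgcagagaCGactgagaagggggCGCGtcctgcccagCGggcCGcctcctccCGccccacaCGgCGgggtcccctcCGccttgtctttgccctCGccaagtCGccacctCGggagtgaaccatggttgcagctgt
The other 3 came from the wide regions whose covered bases were almost alike in all 4 libraries, described further on. Where such a region was in pieces, the width given is that of the piece over the start site. Tbx1 encodes a T-box factor of heart and pharyngeal development (chr16:18590622-18590921, minus strand). For WT_407, WT_409, KO_399 and KO_401, the peak over its start site had widths of 12980, 13127, 12991 and 13014 bp. Skor1 encodes a neural corepressor (chr9:63148912-63149211, minus strand), with peaks of 21057, 20742, 18491 and 20652 bp in the same order. Foxl2 encodes a forkhead factor of the ovary (chr9:98955357-98955656, plus strand), with peaks of 16167, 16160, 10047 and 10604 bp.
Tbx1: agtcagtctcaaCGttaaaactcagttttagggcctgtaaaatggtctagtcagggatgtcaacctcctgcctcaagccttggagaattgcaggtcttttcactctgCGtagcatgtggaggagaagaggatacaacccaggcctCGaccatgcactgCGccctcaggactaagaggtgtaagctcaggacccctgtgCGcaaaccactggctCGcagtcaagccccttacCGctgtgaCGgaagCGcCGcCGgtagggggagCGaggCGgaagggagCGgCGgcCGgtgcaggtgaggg
Skor1: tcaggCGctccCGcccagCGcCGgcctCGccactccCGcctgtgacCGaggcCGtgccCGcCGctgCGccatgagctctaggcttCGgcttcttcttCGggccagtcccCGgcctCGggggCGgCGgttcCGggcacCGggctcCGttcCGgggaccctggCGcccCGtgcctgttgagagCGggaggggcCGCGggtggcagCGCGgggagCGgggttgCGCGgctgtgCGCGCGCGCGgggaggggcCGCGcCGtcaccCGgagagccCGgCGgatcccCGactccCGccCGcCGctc
Foxl2: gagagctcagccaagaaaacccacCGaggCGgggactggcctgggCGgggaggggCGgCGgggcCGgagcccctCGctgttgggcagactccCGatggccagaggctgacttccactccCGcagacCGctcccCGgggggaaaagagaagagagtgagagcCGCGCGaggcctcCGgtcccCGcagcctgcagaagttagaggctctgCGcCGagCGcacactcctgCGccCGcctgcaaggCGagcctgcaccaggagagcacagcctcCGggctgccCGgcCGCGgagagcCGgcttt
CG, which reads alike on both strands, occurred 7 times in the Apela promoter, 25 in Lrfn4, 19 in Gpx7, 16 in Tbx1, 46 in Skor1 and 27 in Foxl2. Of the 32851 promoters of this length in the RefSeq table, 94.6% held at least 1 CG, and the median was 7. These 6 are examples, and the counts over all start sites are given below.

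H3K27me3 peaks covered fewer bases in both KO mice than in either WT mouse. WT_407 had 34.5 Mb under peaks and WT_409 31.5 Mb, KO_399 had 15.2 Mb and KO_401 23.1 Mb, so the genotypes did not overlap. The WT mean of 33.0 ± 2.09 Mb (SD, n = 2) compared with a KO mean of 19.1 ± 5.64 Mb (SD, n = 2), or 58.0% of WT (two-sided exact permutation p = 0.333). With 2 against 2 mice no p below 0.333 is possible, and every permutation p given here met this limit or a weaker one. The 2 KO mice differed by 7.98 Mb, more than the 2.96 Mb between the WT mice and close to the gap of 8.40 Mb between the genotypes. These bases lay in 11930, 9838, 6542 and 7653 peaks, respectively. The background recovered from the deposited values was 3.09, 3.15, 3.30 and 3.67 reads per position, so it was not lower in KO. Each list held only peaks with a deposited fold above 5, which needed 19.5 to 22.4 reads at the summit. A site without a peak may thus have had a weaker one, and the part of depth or enrichment in the differences was not tested.

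Peak width depended on which widths were asked about. The median width was 1891.5 bp for WT_407, 2275 bp for WT_409, 1790 bp for KO_399 and 2341 bp for KO_401 (two-sided exact permutation p = 1), and the genotypes interleaved. The 90th percentile of width was 6016, 6419, 4432 and 5812 bp, with no overlap. The base-weighted median, the width at which equal numbers of covered bases lie in wider and in narrower peaks, was 4563, 4706, 3101 and 4103 bp (exact p = 0.333). Peaks of 10 kb and over numbered 378, 331, 72 and 190 and covered 6.02, 5.44, 0.969 and 2.82 Mb. KO mice averaged 33.0% of the WT bases in this class, 46.6% at 5 to 10 kb, 72.9% at 2 to 5 kb, 75.1% at 1 to 2 kb and 56.8% under 1 kb. These classes use each library's own widths, so a WT peak that was shorter or split in KO counts in a lower class there. Followed by their width in WT, the widest peaks were kept best: WT_407 peaks of 10 kb and over kept 72.8% of their bases in KO_399 and 87.9% in KO_401, and those under 1 kb kept 1.32% and 9.52%. The widest single peak was 93180, 98749, 44181 and 88324 bp.

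**Figure D1:**
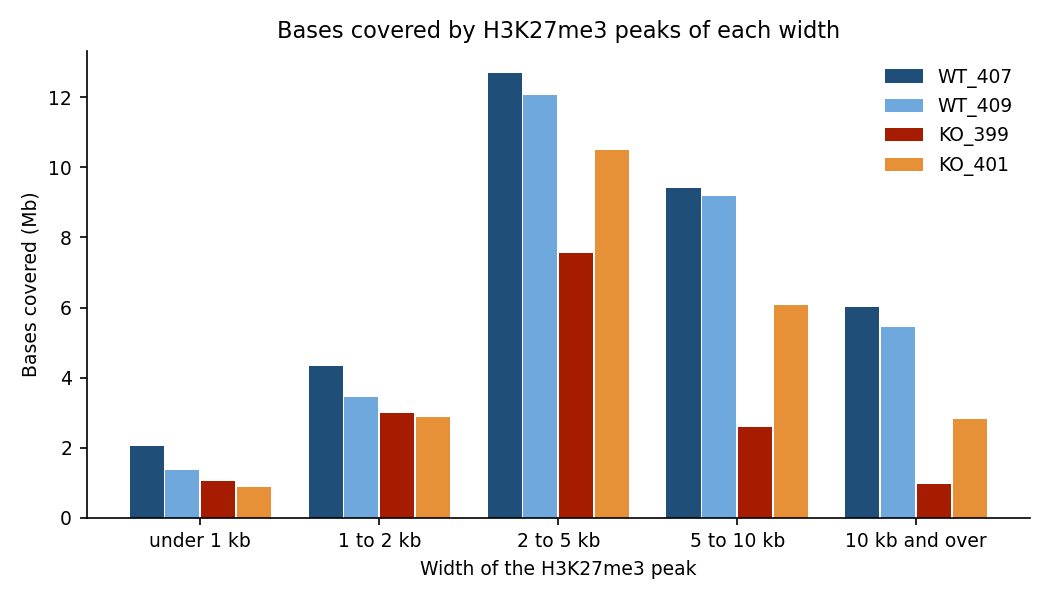
Bars give the bases (Mb, axis from 0) that H3K27me3 peaks of each width class (horizontal axis) covered in each of the 4 libraries. In the class of 10 kb and over the bars stand at 6.02 and 5.44 Mb in WT and at 0.969 and 2.82 Mb in KO.

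The bases covered in KO lay almost wholly within those covered in WT, while the 2 WT lists differed from each other. Bases covered in both KO mice came to 14.7 Mb, and 99.5% of them were covered in both WT mice. Bases covered in both WT mice came to 27.7 Mb. KO_399 covered 54.2% of them and KO_401 78.5%, and 20.2% were covered in neither. Within a genotype, WT_409 covered 80.3% of the bases of WT_407 and WT_407 covered 87.9% of those of WT_409. KO_399 covered 43.8% and 47.8% of the bases of WT_407 and WT_409, and KO_401 covered 64.8% and 70.7%. Every WT-to-KO value was below both WT-to-WT values. KO_399 also covered 63.7% of the bases of KO_401, about as little as KO_401 covered of WT_407, while KO_401 covered 97.2% of those of KO_399. The step between the 2 KO mice was therefore as large as the step from WT to KO_401.

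Merging the peaks of the 4 libraries gave 12219 regions, of which 7371 were held by both WT mice and 4408 by both KO mice. Held means at least 1 covered base. Both WT and neither KO held 1517 regions (12.4% of all), and both KO and neither WT held 1 (0.00818%). All 4 libraries held 4388 regions, called shared. Both WT and KO_401 but not KO_399 held 1363 further regions, against 103 held by both WT and KO_399 but not KO_401. Single libraries also differed within WT: 3185 regions were in WT_407 alone and 1265 in WT_409 alone, while 6 were in KO_399 alone and 96 in KO_401 alone. The count of 1517 depended on single libraries, and was 5263 without WT_409, 3324 without WT_407, 2906 without KO_401 and 1621 without KO_399. It also depended on list length: with each list cut to the same number of top peaks it was 372, against 5 held by both KO and neither WT. With each list cut to the same covered length, where 2106 WT and 4794 KO peaks remained on average, it was 1 against 539. At stricter folds of 6 and 8 it was 1128 and 889 against 0. Among the alternatives run, the direction of this count turned only at the same covered length. There the KO lists, with narrower peaks, held more of them, so the direction depends on how the lists are made equal. At the same covered length, 1211 of 1610 shared regions had a shorter span in both KO and 3 a longer one. That cut drops whole peaks and leaves the edges of the others as called. It therefore cannot show whether the shorter span depends on depth or list length.

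Short regions made up most of those missing in KO. Of regions held by both WT mice with a mean WT length under 1 kb, 86.4% were in neither KO (408 of 472). The share was 50.7% at 1 to 2 kb, 8.29% at 2 to 5 kb, 0.419% at 5 to 10 kb, and none of the 413 regions of 10 kb and over was missing in both KO. The widest regions therefore kept some mark everywhere, and their change was in shape. In shared regions, the covered bases were fewer in both KO than in either WT mouse in 3498 (79.7%) and more in 0 (0%). The share with fewer bases was 75.7% for regions of 2 to 5 kb and 92.5% for those of 10 kb and over. The median shared region of 10 kb and over had 71.7% of its mean WT bases in KO_399 and 89.4% in KO_401.

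The bases of a WT library that a KO library did not cover were divided into whole WT peaks without overlap, bases beyond the outermost KO edges, and gaps between KO pieces. Of the WT_407 bases, KO_399 left 28.6% uncovered as whole peaks, 25.2% at edges and 2.41% as gaps, and KO_401 left 18.2%, 15.9% and 1.11%. WT_409 left 9.60%, 9.24% and 0.817% of WT_407 in the same way. Each kind was thus larger from WT to KO than from WT to WT, while the mix was similar. Whole peaks made up 43.7% to 51.6% of the WT-to-KO loss and 37.8% to 48.8% of the loss between the WT mice, and gaps made up 3.15% to 4.53% and 4.16% to 5.73%. From KO_401 to KO_399, whole peaks left 13.9% uncovered, edges 20.5% and gaps 1.89%. The kind of loss depended on the width of the WT peak. In KO_399, WT_407 peaks of 1 to 2 kb left 85.6% of their bases as whole peaks and 6.41% at edges, and peaks of 10 kb and over left 0.396% as whole peaks, 18.5% at edges and 8.28% as gaps.

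**Figure D2:**
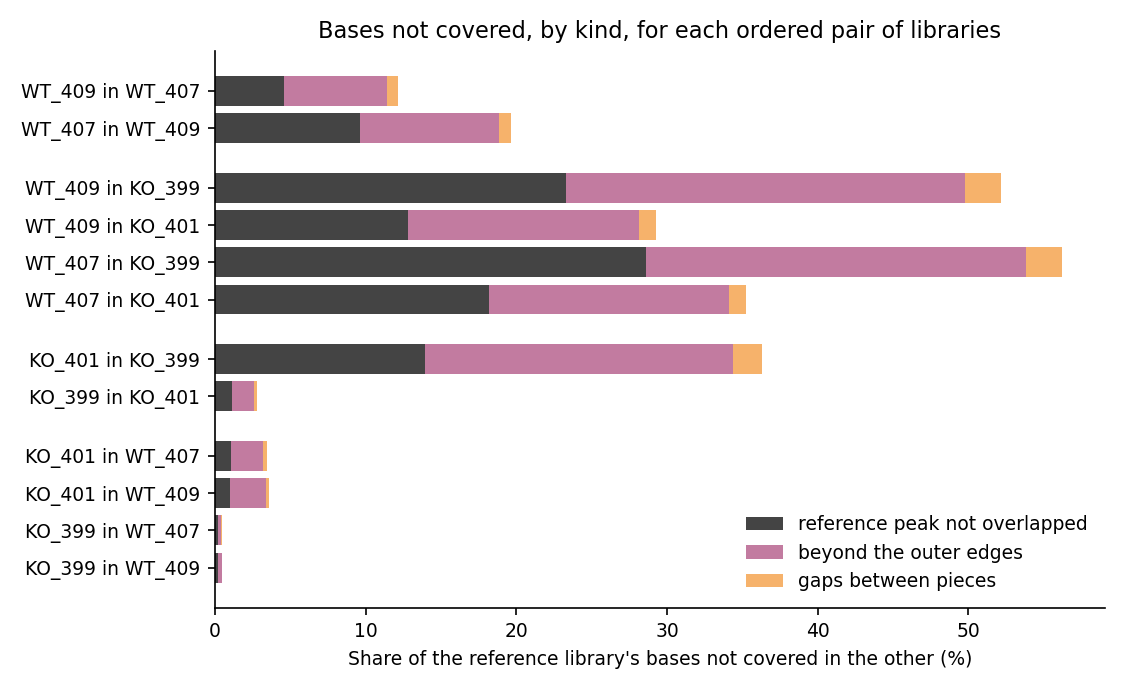
Each bar is an ordered pair of libraries and gives the share of the first library's bases (%) not covered in the second, split by kind. WT peaks in KO_399 have the longest bars (56.2% and 52.2%), WT peaks in KO_401 and KO_401 peaks in KO_399 lie between 29.3% and 36.3%, and WT against WT at 12.1% and 19.7%.

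Edges of wide domains lay further inward in both KO mice. For WT_407 peaks of at least 5 kb, the median edge of the overlapping KO_399 peaks lay 1109 bp inside the WT edge and that of KO_401 398 bp inside, against 23 bp in WT_409. For WT_409 peaks the values were 1065.5 and 344.5 bp inward, and 56 bp outward in WT_407. Edges lay inward at 96.9% and 81.4% of WT_407 edges in KO_399 and KO_401, and at 53.5% in WT_409. Between the KO mice, KO_399 lay 459 bp inside KO_401, which again is as large as the step from WT to KO_401. Seen from the KO peaks, the WT edges lay further out, with medians of -477.0 to -1883.5 bp on the same scale, where a negative value is outward. In shared regions the span from the outer left to the outer right edge averaged 5.79, 5.65, 3.68 and 4.84 kb in WT_407, WT_409, KO_399 and KO_401 (exact p = 0.333). It was shorter in both KO in 3429 regions (78.1%) and longer in 0 (0%). Both edges lay inward in both KO in 1959 of the shared regions and 1 edge in 1914, and in 14 an edge lay outward.

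The centre of wide WT peaks was kept far more often than the rim. Across WT_407 peaks of at least 5 kb cut into 10 equal parts, KO_399 covered 24.2% of the first part, 73.2% of the third and 82.2% of the fourth. KO_401 covered 52.1%, 91.5% and 95.2% of the same parts, and WT_409 covered 76.3%, 97.4% and 98.8%. All 3 libraries had the same shape with a different depth. KO_399 against KO_401 peaks began at 46.6% in the first part and reached 91.7% in the fourth.

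**Figure D3:**
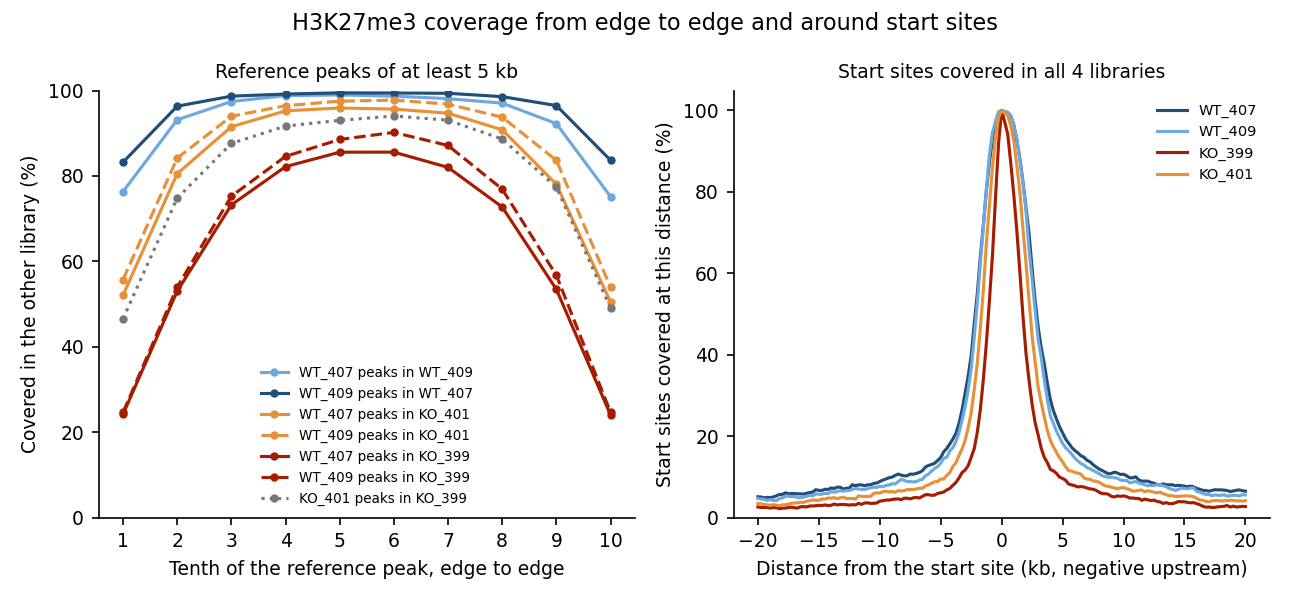
Left, the share of bases (%) covered in another library across 10 equal parts of reference peaks of at least 5 kb. Right, the share (%) of the 1954 start sites covered in all 4 libraries that were covered at each distance (kb) within 20 kb. The first part stands at 24.2% in KO_399, 52.1% in KO_401 and 76.3% in WT_409 for WT_407 peaks.

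Splitting of domains was more frequent in KO but took few bases. Shared regions held 1.21, 1.18, 1.45 and 1.33 peaks each in WT_407, WT_409, KO_399 and KO_401 (exact p = 0.333), and regions in 5 or more pieces numbered 5, 12, 85 and 38. The share of the span left as gaps was 0.697%, 0.876%, 6.78% and 2.52%. More pieces in both KO than in either WT were found in 302 shared regions (6.88%) and fewer in 62 (1.41%). Of 3149 shared regions with 1 piece in both WT mice, 221 had 2 or more in both KO mice, and 57 of the 2708 with 1 piece in both KO had 2 or more in both WT. Without single libraries the 302 became 450 to 908, against 88 to 161 in the opposite direction. Splitting followed length: 142 of the 413 shared regions of 10 kb and over had more pieces in both KO, against 41 of 2370 at 2 to 5 kb. Of WT_407 peaks of at least 5 kb with any overlap, 49.5% were overlapped by 2 or more KO_399 peaks, 35.2% by 2 or more KO_401 peaks and 22.7% by 2 or more WT_409 peaks. From KO_401 to KO_399 it was 51.3%.

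Most gaps were small. Inside shared regions there were 920, 796, 1992 and 1433 gaps in WT_407, WT_409, KO_399 and KO_401, and their median lengths were 134, 146, 206 and 158 bp. Gaps over 1 kb numbered 15, 40, 266 and 126. Of the KO gaps, 1695 in KO_399 and 966 in KO_401 lay wholly in bases that both WT mice covered. Joining peaks within 1 kb brought the 302 regions with more pieces in both KO to 85, with 0 in the opposite direction, so the count depends on gaps that short. In all 4 libraries the gaps held fewer start sites per Mb than the peaks did. In WT_407 it was 50.9 in gaps against 88.8 in peaks, in WT_409 23.0 against 92.2, in KO_399 53.1 against 131 and in KO_401 35.5 against 106.

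Region by region, both extremes were plain. The longest region held by both WT and neither KO overlapped Egflam, which encodes an extracellular matrix protein (chr15:7228721-7238562), with 8990 and 9577 bases in WT_407 and WT_409. The other 7 of the 8 longest had mean WT lengths of 6848 to 4849.5 bases. They overlapped Arhgap12 and Cfap300, or lay 11857 bp from Nptx1, 4840 bp from Fer, 4101 bp from Cd40, 4310 bp from Otx1 and 7473 bp from Rptor. Of these, Cd40 encodes a costimulatory receptor of B and antigen-presenting cells and Otx1 a homeobox factor. Their strongest peaks sat in the middle of the WT lists by the deposited q, from the 20.7 to the 71.6 percentile. The 1 region held only by KO, with 321 bases in KO_399 and 691 in KO_401, lay on chromosome 12 at 262942 bp from the nearest protein-coding gene, Sp4.

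The largest shortfalls among shared regions were at imprinted, developmental and other genes. At Zdbf2, an imprinted gene (chr1:63243901-63279017), WT_407, WT_409, KO_399 and KO_401 covered 32773, 34561, 10874 and 26022 bases. At Zic1 and Zic4, zinc-finger factors of cerebellar development (chr9:91349848-91398540), they covered 48268, 47727, 27456 and 39913. At Slc15a1, an intestinal peptide transporter (chr14:121478619-121497120), they covered 18287, 17972, 1377 and 6396. In none of these did the genotypes overlap, though at each KO_399 lay below KO_401. The 5 others of the 8 largest shortfalls overlapped Ttll6 with Hoxb13 and Bcar1, or lay 27855 bp from Fcgr1, 24835 bp from Epn2 and 15494 bp from Gpx5. Their KO means were 37.0% to 75.8% of WT. The region near Fcgr1 was an exception in order, with 31649 bases in KO_399 and 29773 in KO_401.

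The 8 shared regions with the most added pieces in KO were chosen for that gap, and are given as a description. The Hoxc region, which holds Hoxc13, Hoxc12, Hoxc11, Hoxc10 and 5 further genes of patterning along the body axis (chr15:102904716-103023205), was 3, 3, 26 and 11 pieces in WT_407, WT_409, KO_399 and KO_401. It still covered 118289, 118085, 102046 and 114957 bases. Hand2, a heart and limb factor (chr8:57309826-57338421), was 1 piece in both WT and 5 in both KO. A region 41376 bp from Rhcg (chr7:79529466-79551986) was 1 piece in both WT and 7 in both KO. Gata3, the T-cell and neural factor, had 2, 1, 6 and 6 pieces, and Prdm13, a neural factor, had 1, 1, 5 and 5. The Zic5 with Zic2 region had 1, 1, 5 and 4 pieces, and the Hoxd3 with Hoxd4 region 3, 3, 6 and 6. The Hox clusters differed among themselves. Hoxb had 15, 13, 21 and 13 pieces, with a longest piece of 47399, 24654, 10920 and 23405 bp, so there KO_401 had as few pieces as WT_409. Across the whole Hoxa span the longest single piece was 52569, 53470, 8228 and 30438 bp, and across Hoxd it was 69159, 73279, 32172 and 63414 bp.

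Some wide domains hardly differed in covered bases. Among shared regions with at least 10 kb in WT, Tbx1 covered 12980, 13127, 12991 and 13014 bases in WT_407, WT_409, KO_399 and KO_401, and there the genotypes overlapped. Within 5 kb of the Tbx1 start site, a window that reaches past this region, the bases were 7971, 8832, 6613 and 6659, without overlap. Lbx1, a muscle precursor factor, covered 18709, 18653, 18342 and 18592 bases, and Skor1 21057, 20742, 20351 and 20652. Others among the 8 best kept were Foxl2, Evx1, Mnx1 and the Hoxb9 to Hoxb7 region, all of developmental factors, at 95.9% to 96.6% of WT. All these regions were chosen for the ratio of KO to WT bases. Tbx1 and Lbx1 were 1 piece in all 4 libraries, while others were split in KO. In the same library order, Foxl2 had 1, 1, 2 and 3 pieces and Evx1 1, 1, 4 and 2. Mnx1 had 1, 1, 3 and 3, and the Hoxb9 to Hoxb7 region 1, 1, 6 and 3. The strongest WT peaks of those named stood between the 91.5 and the 99.9 percentile of the WT lists by the deposited q.

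**Figure D4:**
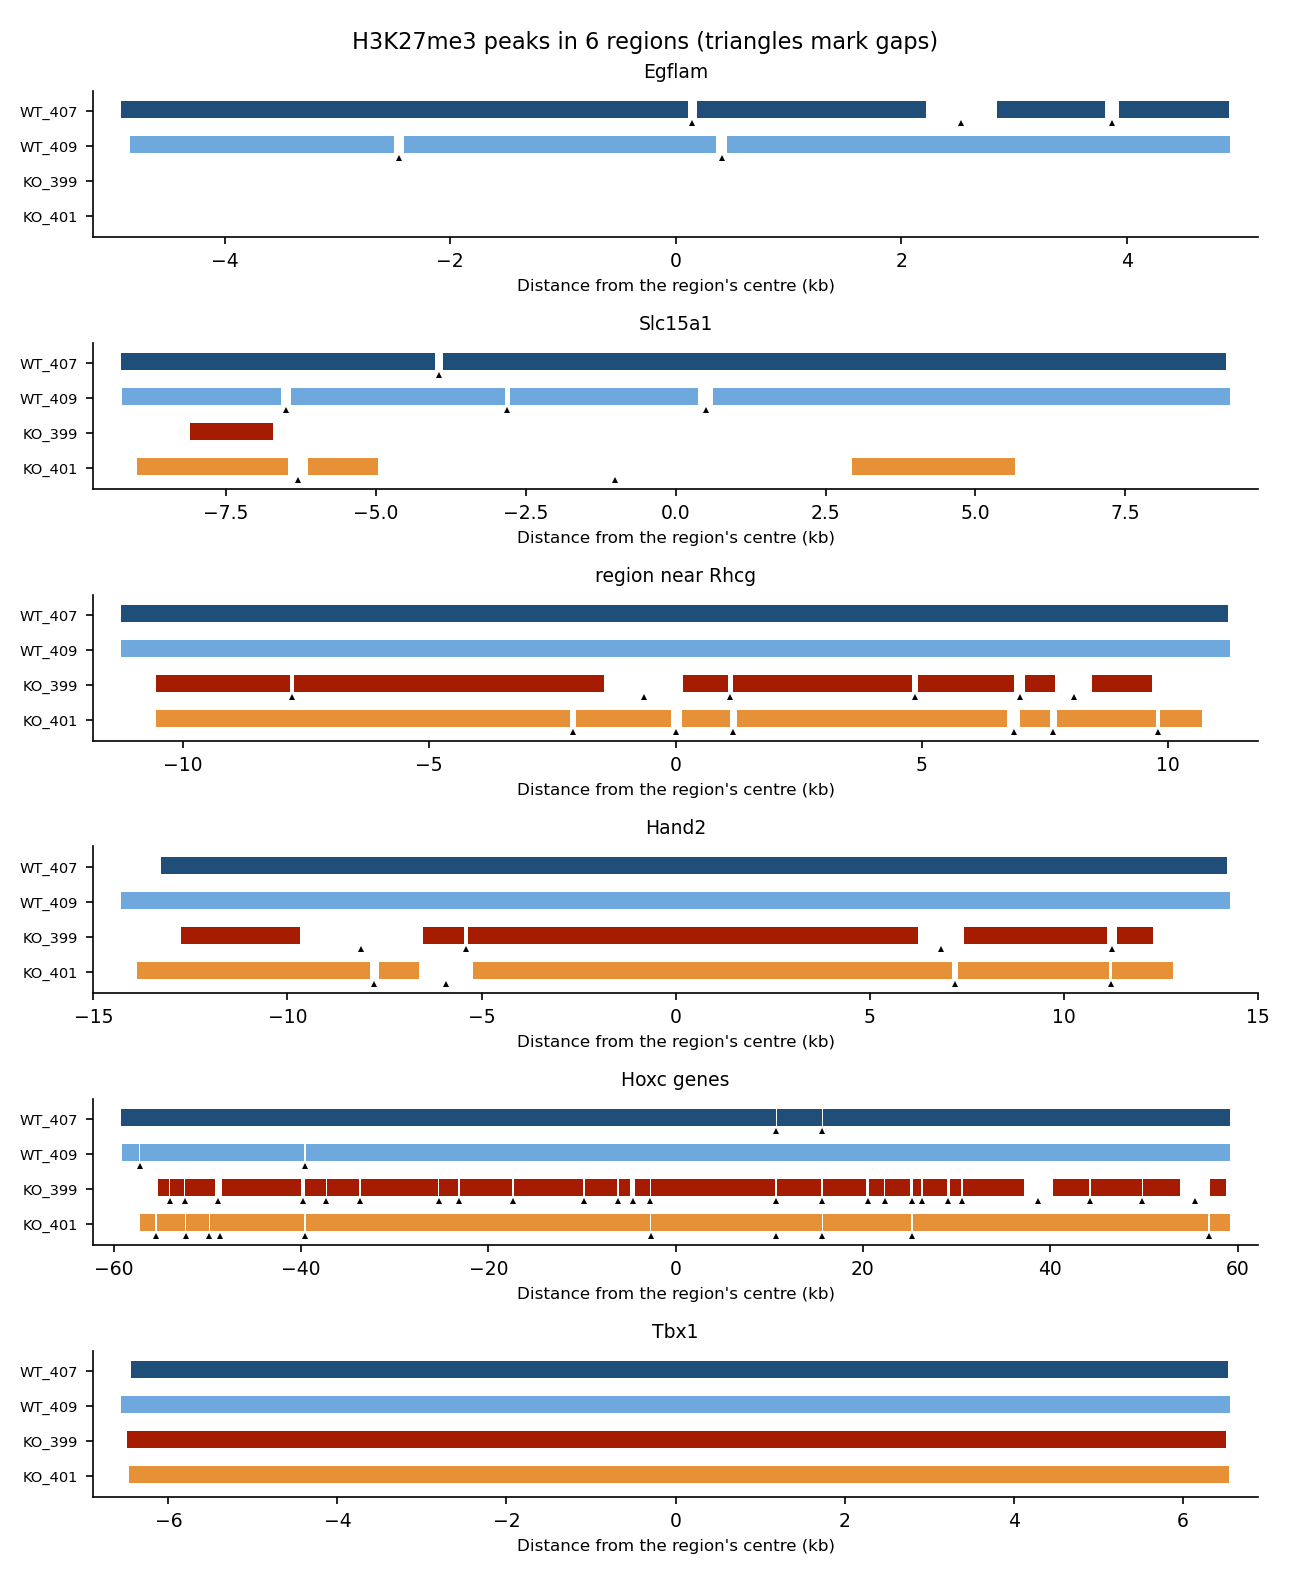
Bars mark H3K27me3 peaks of each library in 6 regions, drawn to scale by distance from the region's centre (kb), with triangles at the gaps between pieces. Egflam has no KO peak, Slc15a1 keeps 1377 and 6396 bases, Hand2 goes from 1 piece to 5, the Hoxc genes from 3 to 26 and 11, and Tbx1 is 1 piece in all 4 libraries.

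Covered length was kept best near gene ends and least far from genes. Within 2 kb of an end of a protein-coding gene, both WT mice had 14.3 Mb covered, KO_399 had 8.38 Mb and KO_401 11.7 Mb, so that KO averaged 70.1% of WT. In gene bodies it was 10.4, 9.10, 3.85 and 6.37 Mb (52.4%). Outside genes KO averaged 47.2% at 2 to 10 kb, 42.7% at 10 to 50 kb, 43.3% at 50 to 200 kb and 30.3% over 200 kb, where WT held only 0.139 and 0.105 Mb. The genotypes did not overlap in any of the 6 classes (exact p = 0.333 each, 0.333 adjusted over the classes). Between the WT mice, WT_409 covered as much as WT_407 near gene ends (100.6%) and 75.6% as much over 200 kb away. How much less was kept far from genes depended on the direction. WT_409 covered 90.8% of the WT_407 bases near gene ends and 62.3% over 200 kb away, and WT_407 covered 90.3% and 82.3% of those of WT_409. The share of a library's bases near gene ends was 41.3%, 45.5%, 55.3% and 50.4%. The width of the peaks moved with this. WT_407 peaks of 2 to 5 kb kept 48.6% of their bases in KO_399 near gene ends and 23.2% outside genes, with 75.3% and 49.2% in KO_401 and 88.9% and 73.8% in WT_409. WT_409 peaks of 2 to 5 kb kept 48.0% and 27.5% in KO_399, 75.0% and 58.3% in KO_401, and 88.2% and 85.6% in WT_407. WT_407 peaks of 10 kb and over kept 74.0% and 71.2% in KO_399, and 88.7% and 87.3% in KO_401.

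Regions missing in KO had H3K4me3 less often than regions that stayed, in each of the 4 H3K4me3 lists. Of the 1517 regions held by both WT and neither KO, 19.2% to 22.4% overlapped an H3K4me3 peak, depending on the H3K4me3 list, against 52.2% to 62.9% of the 4388 shared ones. At a WT length of 2 to 5 kb the WT means were 20.5% and 52.8%. Near gene ends at that length they were 42.5% and 59.7%, and away from gene ends 9.90% and 36.1%. H3K4me3 present in both KO lists and neither WT list touched 2 of the 1517 (0.132%) and 39 of the 4388 shared regions (0.889%). H3K4me3 in both WT lists and neither KO list touched 1 and 12 of them. The reference between WT mice went both ways, since 4.85% of regions in WT_407 but not WT_409 and 35.3% of those in WT_409 but not WT_407 overlapped WT H3K4me3. The low share in regions missing in KO thus lies within the range that 2 WT mice gave. It was 9.01% when WT_409 was left out, 29.8% without KO_401 and 14.2% when an overlap of 500 bp was asked.

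Fewer start sites were covered in both KO, and the mark reached less far from them on both sides. Of 17492 protein-coding start sites, 2838, 2916, 1982 and 2542 were under a peak in WT_407, WT_409, KO_399 and KO_401. Both WT and neither KO covered 210 (1.2%), and both KO and neither WT covered 0 (0%). Around the 1954 start sites covered in all 4, the peak reached a median of 1975.5, 1979, 937.5 and 1523 bp upstream and 2706.5, 2671, 1551.5 and 2187 bp downstream (exact p = 0.333 for each side). The upstream reach was shorter in both KO at 1233 (63.1%) and the downstream reach at 1276 (65.3%), and they were longer at 2 and 4. The WT mice differed by at most 35.5 bp on either side, while the KO mice differed by 585.5 and 635.5 bp.

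CpG-rich start sites, such as that of Skor1 above, kept the mark more often than CpG-poor ones. Of start sites covered in both WT, those with 0 to 4 CG in the printed window stayed covered at 52.7% in KO_399 and 79.4% in KO_401. With 30 and over, 81.7% and 95.9% stayed covered. Those covered in neither KO came to 19.1% and 3.76% of the same classes. Between the WT mice the order was present in one direction only. WT_409 kept 84.6% of the WT_407 sites with 0 to 9 CG and 97.8% of those with 20 and over, and WT_407 kept 90.9% and 91.0% of the WT_409 sites. At a WT peak width of 2 to 5 kb, KO_399 kept 55.8% of sites with 0 to 9 CG, 74.8% with 10 to 19 and 77.4% with 20 and over. At 10 kb and over it kept 94.9%, 97.4% and 93.1%, so the order was not seen there.

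Covered length was lower in both KO on all 20 chromosomes with the mark. On the autosomes KO averaged 53.3% (chromosome 18) to 61.3% (chromosome 10) of WT, a narrow range, and WT_409 had 88.7% to 95.7% of WT_407. Across the 20 chromosomes the KO percentage did not follow gene density (Spearman's rho = 0.033, n = 20 chromosomes of the same 4 libraries, given as a description). Chromosome X stood apart at 29.7%. WT_407 had 345.6 kb there, WT_409 366.2 kb, KO_399 32.9 kb and KO_401 178.8 kb, or 9.25% of the WT mean in KO_399 and 50.2% in KO_401. Of 124 X regions held by both WT, 49 (39.5%) were in neither KO, against 13.1% to 26.8% on the autosomes. The gap between the KO mice was also widest there: KO_399 had 18.4% of the bases of KO_401 on X and 61.6% to 69.3% on the autosomes. X peaks also differed in WT. Their median place by the deposited q was the 43.2 percentile in WT_407 and 38.1 in WT_409, and their median width 1439.5 and 1715 bp. Among WT_407 peaks of 2 to 5 kb, those on X kept 11.4% of their bases in KO_399 against 39.0% on the autosomes, and 58.5% against 65.0% in KO_401. Only width was matched, since by q these X peaks lay at a median percentile of 53.5 and the autosomal ones at 68.1. At 1 to 2 kb, KO_401 kept 31.6% of the WT_407 bases on X and 27.4% on the autosomes, and of the WT_409 bases 18.5% and 34.4%. The part of peak strength in the X values was not tested.

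**Figure D5:**
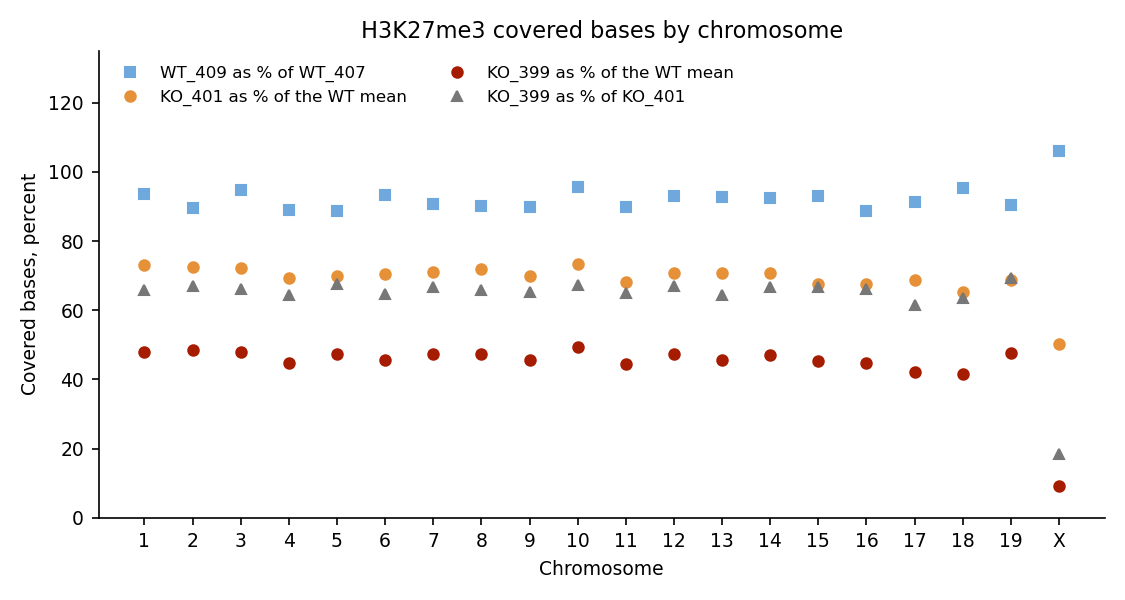
Covered bases on each chromosome, in percent (axis from 0), for WT_409 against WT_407, each KO library against the WT mean, and KO_399 against KO_401. The autosomes lie in flat bands, and on X KO_399 drops to 9.25% and KO_401 to 50.2% of WT while WT_409 is at 106% of WT_407.

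H3K4me3 on X did not move with this. It made up 2.53%, 2.54%, 2.48% and 2.53% of the H3K4me3 bases of WT_407, WT_409, KO_399 and KO_401. All 4 libraries had H3K4me3 peaks on Y (31, 33, 42 and 33) and none within 2 kb of Xist. Among the longer X regions, Pcdh19, a protocadherin gene, covered 6686, 6565, 0 and 4952 bases in the same order, and Irs4, an insulin receptor substrate, 5172, 6014, 0 and 4595. Sox3, a neural SRY-box factor, covered 5815, 6252, 360 and 4557. These were named for their length in WT after the X values were seen. In each, KO_399 was well below KO_401, and KO_401 was below both WT mice.

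Gene lists are described by their counts beside those of all genes. A gene was given the H3K27me3 bases within its span and 2 kb on either side. All 30 developmental factors had the mark in all 4 libraries. Fewer bases in both KO than in either WT were found for 17 of the 30, against 4061 of the 5936 genes with the mark in any library (68.4%), and none of the 30 had more. The 5936 include genes without the mark in a WT library, which cannot count as fewer. Here and below, 68.4% is therefore a low reference for genes with the mark in all 4. More pieces in both KO were found for 4 and fewer for 3. Of the 3834 genes with the mark in all 4 libraries, 4.41% had more pieces in both KO and 10.4% had fewer, so by gene the count ran the other way from that by shared region. The median gene of the list kept 87.5% of its WT bases in KO_399 and 95.5% in KO_401, against 57.9% and 82.5% over the 3834 genes with the mark in all 4. Olig2 and Cdx2, factors of oligodendrocytes and intestine, had the same bases in all 4 libraries, 7128 and 10350. Pax7, a muscle stem cell factor, covered 29048, 23490, 15898 and 16917 bases. The 2 kb window truncates wide domains, so short genes inside one can show no change.

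Of 16 signalling genes, 15 had the mark in all 4 libraries and 15 had fewer bases in both KO, beside the 68.4% of all genes with the mark. Wnt3a, a stem-cell Wnt ligand, covered 22483, 14881, 8107 and 10793 bases. Lefty1, a Nodal inhibitor, covered 609, 1265, 0 and 0, and was the only 1 of the 16 held by both WT and neither KO, as were 8.04% of all genes with the mark. Of 20 regulators of blood progenitors, 11 had the mark in any library and 9 in all 4, and 9 of the 11 had fewer bases in both KO. The other 9 had no peak, as had 15951 of all 21887 protein-coding genes. Tal1, a master regulator of blood stem cells, covered 8105, 9650, 3267 and 6092 bases, and Hlf, a stem-cell factor, 2276, 2772, 525 and 1297. Of 15 cell cycle and p53 genes, 10 had the mark in any library, and 7 of these had fewer bases in both KO, a share near the 68.4% of all genes. At Cdkn2a, which encodes p16INK4a and ARF, coverage was 24147, 23957, 16131 and 20513 bases in 1, 3, 7 and 4 pieces. At Cdkn1a, the p53 target p21, it was 2322, 2760, 0 and 1886. At Wnt3a, Tal1, Hlf, Cdkn2a and Cdkn1a alike, KO_399 lay below KO_401 and both lay below WT.

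Most genes of the Polycomb machinery had no peak, as had most genes. Of 14 genes of Polycomb repressive complex 2 and the H3K27 demethylases, 11 had no H3K27me3 peak in any library, Ezh1, Ezh2, Eed, Suz12 and Kdm6a among them, beside 15951 of 21887 over all genes. Kdm6b, an H3K27 demethylase, covered 2747, 2480, 855 and 1790 bases, and Epop, an accessory subunit, 6330, 6330, 5750 and 6246. Ints11 itself had no H3K27me3 peak in any library, and a list of histone peaks does not show its deletion.

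Genes that define the sorted cells and their neighbours were checked against the label. Kit, Myb, Runx1, Spi1 and Mpo had no H3K27me3 peak in any library, and each had H3K4me3 in all 4. The other 5 of the 10 progenitor genes had the mark in at least 1 library. Gata2, a stem-cell factor, covered 12852, 13399, 12132 and 12714 bases, Meis1, a homeobox factor, 14483, 15543, 10045 and 13593, and Flt3, a cytokine receptor, 4115, 3927, 2702 and 3480. Cd34 covered 0, 611, 0 and 678 bases and Cebpa 0, 876, 568 and 0. The 5 mature myeloid genes Itgam, Csf1r, Ly6g, S100a8 and Elane also had no H3K27me3 and had H3K4me3 in all 4, with 7019, 7389, 7716 and 7083 bases at Itgam. Erythroid genes had the mark at Epor in all 4 libraries, and at Hba-a1 (1396, 696, 0 and 0 bases) and Slc4a1 (4033, 883, 0 and 0 bases) in WT only. B lymphoid Pax5 covered 27406, 19110, 13863 and 18029 bases. T-cell Cd3g covered 1174, 1409, 0 and 0, and stromal Col1a2 2295, 1606, 0 and 0. Over the 5 lists of other cell types, 13 of 25 genes had the mark in any library and 12 of these had fewer bases in both KO. Among the progenitor genes it was 3 of the 5 with the mark, and over all genes with the mark 68.4%. The WT mice differed in H3K4me3 at erythroid and B lymphoid genes. Only WT_409 had it at Hba-a1, Hbb-bs, Slc4a1 and Il7r (1114, 1026, 1079 and 2855 bases). Pax5 had 1123, 6343, 2795 and 660 bases of H3K4me3 in WT_407, WT_409, KO_399 and KO_401. At the T-cell genes Gata3 and Tcf7, WT_409 lay below WT_407 instead. Whether the mix of cells differed between the genotypes, or between the WT mice, was not tested.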

How the data were processed

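The members, the gene lists and the tests were chosen with earlier results of these data known. The submitters' processing notes name Bowtie2, MACS2, SAMtools, deepTools, Trim Galore and FastQC and the build mm10, without versions. Per the labels, fixation used 1% formaldehyde, fragments were 100 to 300 bp and read length was 75 bp. The authors deposited 1 narrowPeak list per immunoprecipitated library, so peaks were called per library. The 4 input samples were not analysed here, and the sources do not say what control the caller had. Per peak, the deposited score is a whole number, the deposited fold is a ratio at the summit, and the deposited −log10 values are of p and q. These are the authors' values. They served to rank or filter peaks within a list, and fold and p also gave the reads and background described next.

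All deposited folds exceeded 5, and 24.8%, 29.8%, 36.5% and 27.0% of the numbered peaks of WT_407, WT_409, KO_399 and KO_401 were listed. Reads at the summit and background were solved from fold and p, for 100% of peaks within 0.001 of −log10 p. They are depths as the caller used them, and intervals from counting were not applicable to peak positions.

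Peaks were merged into regions where they overlapped or touched. For each ordered pair of libraries, the uncovered bases of the reference were split into whole peaks, edges and gaps, and edges were measured without clipping. Gene spans (21887 protein-coding genes) and start sites (17492 matched, 4395 genes without) came from RefSeq tables of GRCm38.p6, which has the mm10 coordinates. Libraries were compared by the two-sided exact permutation test, adjusted over chromosomes or distance classes by Benjamini-Hochberg. Counts of regions carry no test.

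Named regions were the 8 longest held by both WT and neither KO, the 8 largest shortfalls, the 8 with the most added pieces, the 8 best kept of at least 10 kb, and those held only by KO, each named by the genes within 2 kb or the nearest. A few regions that this rule names are not reported here. The interval code was tested on simulated data. Python 3.11.15, numpy 2.4.6, pandas 2.3.3, scipy 1.17.1 and matplotlib 3.10.9 were used. Alternatives were stricter folds, lists of equal number or equal length, joined peaks, other minimum overlaps, no sex chromosomes and leaving out each library.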

Additional observations from a re-analysis of the deposited data

How the results depend on the processing

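No paired analysis was possible because the WT and KO mice share no replicate numbers. Over 18 results and 160 alternative values, 120 were counted as the same, 37 moved and 3 reversed. For measures given as KO percent of WT, only the direction was asked, and size could differ widely. The gap share, 591% of WT as reported, was 3021% with the same covered length and 296% without KO_399, and both counted as the same. Counts had to stay within a fixed factor of the reported count. Other values had to lie within the SD between the KO mice, or for H3K4me3 between the WT lists. For the inward distance of edges that SD was 506 bp, so 371 and 1087 bp against 729 bp counted as the same. For the share of loss as whole peaks it was 0.0882 points, so 44.2% against 47.7% counted as moved. The tally therefore does not show how close the values stayed. Covered length was lower in both KO on all 20 chromosomes and in all 6 distance classes in every alternative run for them. The number of peaks was 228% of WT with lists cut to the same covered length, by the construction of that setting. The median width in KO was 109% of WT without WT_409 and 112% without KO_399. Leaving out single libraries gave 85.9% to 112% for that width, 1621 to 5263 regions held by WT only, 7 to 98 held by KO only, and 450 to 908 with more pieces in both KO. It gave 44.2% to 51.2% of the loss as whole peaks, and 9.01% to 29.8% of WT-only regions with H3K4me3. Fewer libraries must meet each condition there, so such counts grow by construction. Regions held by WT only numbered 889 at a fold of 8, 372 with the same number of peaks and 1 with the same covered length. Those held by KO only numbered 0 at folds of 6 and 8 and when 500 bases were asked, 5 with the same number and 539 with the same covered length. More pieces in both KO were found in 162 regions at a fold of 6, 66 at a fold of 8, 124 with the same covered length and 85 with peaks within 1 kb joined. A shorter span was found in 1425 regions at a fold of 8, of 1778 shared, and in 1211 of 1610 with the same covered length. With the same covered length, KO kept 72.9% of WT bases, against 79.4% between the WT mice. Splitting of WT domains, 43.0% as reported on average, was 23.8% for reference peaks of at least 2 kb, 75.0% at 10 kb, 14.1% at a fold of 8 and 12.4% after joining. Whole peaks made up 37.0% of the loss after joining, and 14.2% of WT-only regions overlapped H3K4me3 by 500 bp. The cause of these shifts was not tested. Covered length and number of peaks are fixed by the lists of equal length and equal number, so those values were not computed. Depth limits what a missing peak means, since each list stops at a fold of 5.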
